A study of Mus musculus with 14 samples.

Results

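Chromatin was compared between mouse livers at 7 genes of cholesterol synthesis and its control, taken from 21887 protein-coding genes. The genes were chosen by name as Hmgcs1, Idi1, Fdps, Sqle, Lss, Srebf2 and Insig1, and each was examined over its annotated body with 5 kb on both sides. No receptor or transporter for cholesterol uptake is among the 7, so uptake was covered by a further list of genes. YAP livers came from C57BL/6 mice carrying an inducible transgene for YAP, the transcriptional co-activator restrained by the Hippo pathway. WT livers came from wild-type C57BL/6 mice. Doxycycline at 50 mg/L in drinking water for 10 days induced YAP, and the labels attach this treatment to every library, WT included, without stating separately that WT mice drank it. Neither the promoter driving the transgene nor the sex and age of the mice is stated in the labels. Chromatin was digested with micrococcal nuclease and precipitated with antibodies against LSD1, H3K4me2 or H3K4me1, with 2 libraries per antibody and genotype and 1 input library per genotype. Each antibody and genotype has 1 list of regions for both libraries, so no spread between replicates can be given and no difference was tested.

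Cholesterol is made from acetyl-CoA through the mevalonate pathway, and liver is one of its main sites of synthesis. When sterols in the endoplasmic reticulum are low, the transcription factor SREBP-2 is released by proteolysis and switches on nearly all genes of the pathway. SREBPs bind sterol regulatory elements near gene starts, commonly together with NF-Y at CCAAT boxes and Sp1 at GC boxes. H3K4me2, the dimethylated form of lysine 4 of histone H3, marks promoters and enhancers, and H3K4me1, the monomethylated form, is typical of enhancers. LSD1, the product of Kdm1a, removes methyl groups from both forms.

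The promoter sequences of the 3 genes with a listed LSD1 region are shown because H3K4me2 left a gap over the start of each of them in both genotypes, and because LSD1 in YAP livers reached into 1 of these windows. They are RefSeq sequences of GRCm38.p6, 300 bases each on the plus strand, from 250 bases before the annotated start to 50 after. Capitals mark matches on either strand to TCACNCCAC (the core of a sterol regulatory element), CACGTG (an E-box), CCAAT (read as ATTGG on the other strand), GGGCGG (a GC box, CCGCCC on the other strand) or GGAATG (the core bound by TEAD factors, the DNA-binding partners of YAP).
Hmgcs1, chr13:119690101-119690400: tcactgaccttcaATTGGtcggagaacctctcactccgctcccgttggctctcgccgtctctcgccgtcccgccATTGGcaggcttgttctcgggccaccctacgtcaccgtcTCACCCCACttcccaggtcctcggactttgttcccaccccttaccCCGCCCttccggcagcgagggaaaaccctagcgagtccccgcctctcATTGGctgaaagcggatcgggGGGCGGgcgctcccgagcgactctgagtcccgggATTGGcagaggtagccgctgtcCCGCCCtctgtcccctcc
Srebf2, chr15:82147019-82147318: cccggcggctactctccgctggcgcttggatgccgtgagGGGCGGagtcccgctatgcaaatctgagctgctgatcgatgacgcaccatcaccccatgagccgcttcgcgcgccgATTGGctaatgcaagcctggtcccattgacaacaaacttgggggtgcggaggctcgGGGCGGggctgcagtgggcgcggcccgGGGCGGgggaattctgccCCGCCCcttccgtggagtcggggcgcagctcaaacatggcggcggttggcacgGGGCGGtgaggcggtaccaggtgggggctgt
Insig1, chr5:28071162-28071461: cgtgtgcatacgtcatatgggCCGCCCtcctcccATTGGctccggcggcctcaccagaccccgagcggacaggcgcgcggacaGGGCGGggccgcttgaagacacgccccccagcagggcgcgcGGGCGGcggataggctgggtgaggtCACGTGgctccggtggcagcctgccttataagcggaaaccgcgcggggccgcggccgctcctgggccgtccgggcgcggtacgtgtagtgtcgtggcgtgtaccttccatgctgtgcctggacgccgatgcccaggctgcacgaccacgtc

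Promoters of 5 of the 7 genes could be searched, those of Hmgcs1, Idi1, Lss, Srebf2 and Insig1. CCAAT was present in all 5 of these windows, and in 37.4% of 32851 promoters of the same length. GGGCGG was also present in all 5, against 35.7% of all promoters and 46.2% of those of protein-coding genes. TCACNCCAC was found at Hmgcs1 alone among the 5, from -137 to -129 relative to the start, and in 1.24% of all promoters. Of 36 further genes of the pathway with a listed promoter, 1 held it, 25 held CCAAT and 27 held GGGCGG. Only exact matches were counted, so sterol regulatory elements with other letters would be missed in these windows. Hmgcs1 held 4 CCAAT and 3 GGGCGG matches. CACGTG was found at Insig1 alone, from -101 to -96, against 7.15% of all promoters, and GGAATG in none of the 5, against 14.7%. Such matches describe the letters of these windows and do not show binding.

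The lists were of unequal size. LSD1 was listed on 2949 joined regions in YAP livers and 1500 in WT livers, H3K4me2 on 51676 in YAP livers and 54219 in WT livers, and H3K4me1 on 6274 in YAP livers and 5905 in WT livers. Of 6 hepatocyte marker genes, 5 carried H3K4me2 in YAP livers and 6 in WT livers, Cyp2e1 being without any in YAP. Of 4 macrophage markers, 4 carried it in YAP livers and 1 in WT livers, with 11.7 kb in YAP livers and 4.40 kb in WT livers in all. Of 3 endothelial markers 2 carried it in YAP livers and 1 in WT livers, as did 2 and 1 of 3 stellate cell markers. Of 4 bile duct markers 2 carried it in each genotype, and the keratins Krt7 and Krt19 had none in either. In chromatin of whole liver, fewer cells of a type that carry a mark and less of the mark per cell cannot be told apart.

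**Figure D1:**
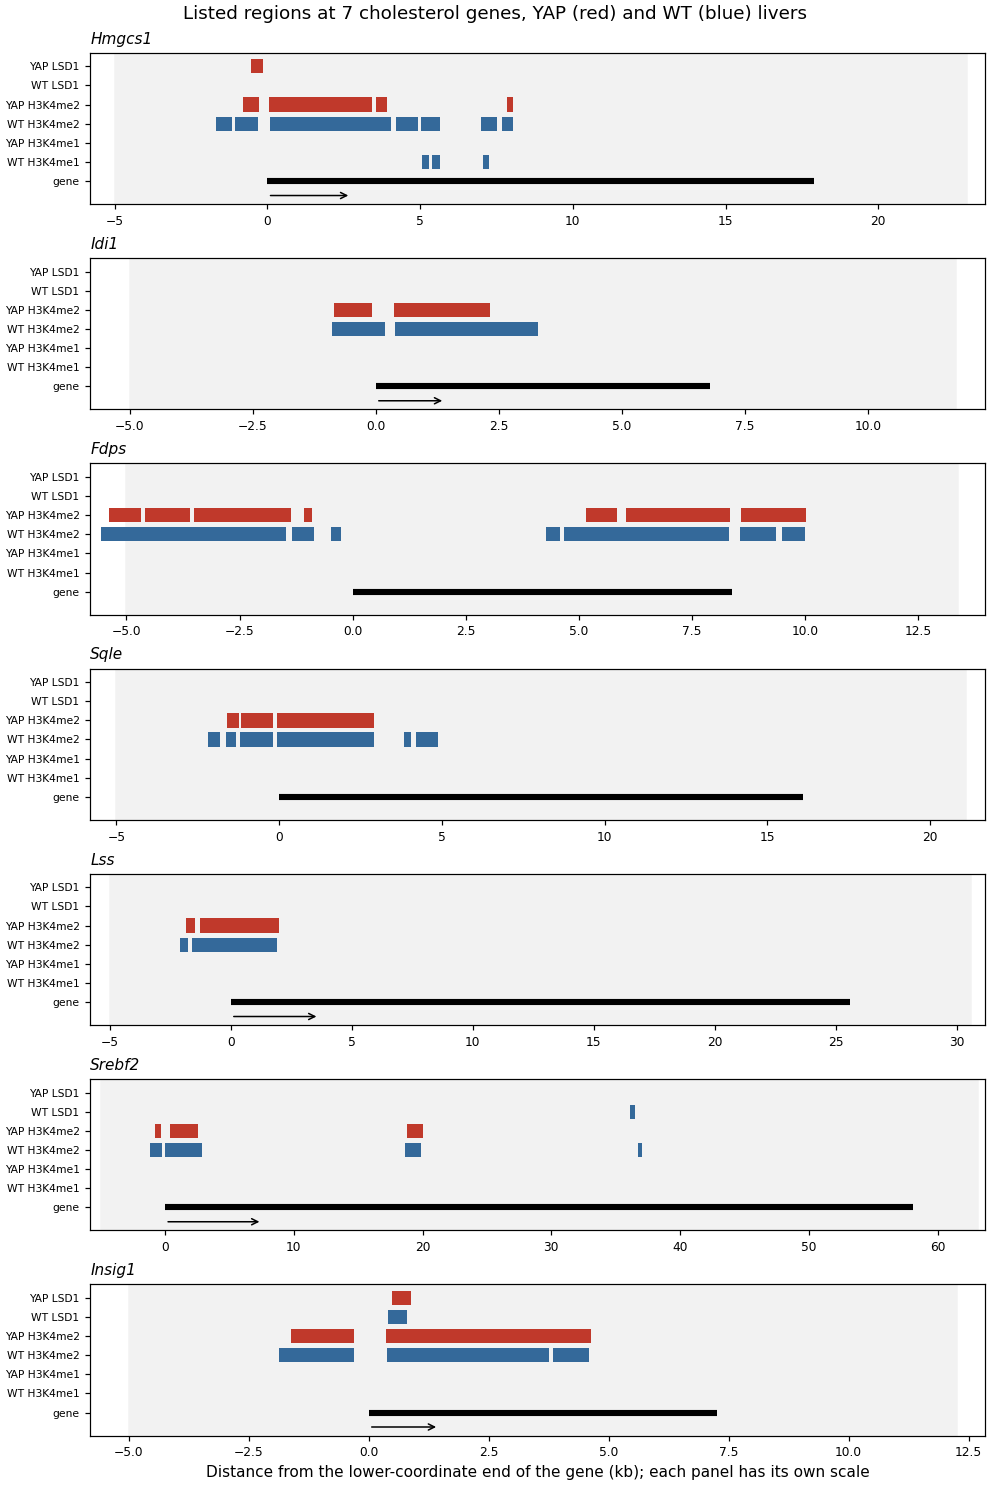
Positions of listed LSD1, H3K4me2 and H3K4me1 regions at the 7 genes, in kb from the lower-coordinate end of each gene, with YAP lists in red and WT lists in blue; grey shading is the window counted, and an arrow gives the direction of transcription where a start was listed. LSD1 lies before the start of Hmgcs1 in YAP livers, deep in the body of Srebf2 in WT livers and just after the start of Insig1 in both, and H3K4me2 surrounds an end of all 7 genes in both genotypes.

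Hmgcs1 encodes the cytosolic synthase that makes HMG-CoA, an early intermediate of the mevalonate pathway, and lies on chromosome 13 from 119690351 to 119708260. It had 1 LSD1 region in YAP livers and none in WT livers. This region ran from 119689807 to 119690206, which is from -544 to -145 relative to the start, and ended 7 bases short of the TCACCCCAC match. Every deposited LSD1 region was 400 bases long in the YAP list and 396 in the WT list. Such ends do not measure where LSD1 binding stops, here or at the genes below. The Hmgcs1 region as listed covered the first 106 bases of the promoter printed above, including 2 of its CCAAT matches. It had the highest authors' score, 1000, with a signal of 60.9, and ranked 76 of 2949 in its list. Of its 400 bases, 283 lay on H3K4me2 as listed in YAP livers and 239 on H3K4me2 as listed in WT livers, with the remainder in the gap before the start. No other LSD1 region lay within 50 kb of the gene in either genotype.

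H3K4me2 at Hmgcs1 covered 4475 bases in 4 regions in YAP livers, and 7508 bases in 7 regions in WT livers. The block after the start ran from 60 to 3412 bases downstream in YAP livers, and from 72 to 4045 in WT livers. A further YAP region from 3549 to 3923 lay within the same WT block. WT livers had 4 regions with no counterpart in YAP livers. One lay from -1685 to -1153, and the others lay inside the gene, at 4212 to 4915, 5021 to 5656 and 6997 to 7531 bases after it. The bases covered in both genotypes made up 98.7% of the YAP bases and 58.8% of the WT bases, so the YAP pattern was almost wholly contained in the WT pattern.

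Hmgcs1 was also the single gene of the 7 with any H3K4me1. None was listed in YAP livers, against 3 regions with 660 bases in WT livers, at 5052 to 5278, 5391 to 5635 and 7056 to 7243 bases after the start. All 3 lay entirely on WT regions of H3K4me2 that had no counterpart in YAP livers. Their authors' score was 40 in each case and their deposited −log10 q-value was 0. This value was also 0 for 3986 of the 5905 H3K4me1 regions in the WT list and 2378 of the 6274 in the YAP list. Over all protein-coding genes, 11.3% had H3K4me1 in the window in YAP livers and 9.5% in WT livers, and 3.17% had it in WT only. Among genes of similar H3K4me2 extent, meaning a mean over both genotypes from 3.36 to 8.79 kb like that of the 7 genes, 7.01% had it in WT only. Of all protein-coding genes, 0.338% had at least 3 regions in WT livers with none in YAP livers. This limit equals the counts at Hmgcs1 and was not among the planned comparisons. The share therefore does not measure how unusual the gene is.

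Idi1 encodes the isomerase that interconverts the 5-carbon units of the pathway, and lies on chromosome 13 from 8885606 to 8892396. Its H3K4me2 covered 2734 bases in YAP livers and 3988 in WT livers, in 2 regions each. The region before the start ended at -67 in YAP livers, whereas in WT livers it ran across the start to base 198. The region after the start reached base 2328 in YAP livers and base 3293 in WT livers. The start itself was thus uncovered in YAP livers over 434 bases and covered in WT livers.

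Fdps encodes the synthase of farnesyl diphosphate, the branch point towards sterols and isoprenoids, and lies on chromosome 3 from 89093588 to 89101967. H3K4me2 in its window covered 8097 bases in YAP livers and 9477 in WT livers, in 7 regions each. Of these, 3649 bases in YAP livers and 4224 in WT livers lay inside the neighbouring gene Rusc1, which shares the lower part of the window. The remainder, 4448 bases in YAP livers and 5253 in WT livers, surrounded the upper-coordinate end of Fdps. The longest region within Fdps was 2298 bases in YAP livers and 3659 in WT livers, and that WT region also overlapped a YAP region of 699 bases. Within the gene body 2997 bases were covered in YAP livers and 3966 in WT livers. Beyond the upper end 1451 bases were covered in YAP livers and 1287 in WT livers.

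Sqle encodes squalene epoxidase, which starts the oxygen-dependent part of the pathway, and lies on chromosome 15 from 59315092 to 59331193. Its H3K4me2 covered 4305 bases in 3 regions in YAP livers, and 5557 bases in 6 regions in WT livers. The main region was nearly identical, from -70 at the lower-coordinate end to base 2905 within the gene in YAP livers and to base 2918 in WT livers. Most of the difference lay in 3 short WT regions without a counterpart, of 363, 212 and 674 bases, each with an authors' score of 45.

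Lss encodes lanosterol synthase, which closes the sterol ring system, and lies on chromosome 10 from 76531565 to 76557139. Its H3K4me2 covered 3644 bases in YAP livers and 3821 in WT livers, in 2 regions each. A single region spanned the start in both, from -1265 to 2009 relative to the lower-coordinate end in YAP livers, and from -1594 to 1897 in WT livers. The whole 300-base promoter window was covered in both genotypes. At Hmgcs1 and Insig1, by contrast, no base of the window was covered in either genotype, and at Srebf2 none was in YAP livers and 15 were in WT livers.

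Srebf2 encodes SREBP-2, the main activator of the pathway, carries the microRNA gene Mir33 within its bounds, and lies on chromosome 15 from 82147269 to 82205379. It had no LSD1 region in YAP livers and 1 in WT livers. This region ran from 82183347 to 82183742, about 36.3 kb into the gene, with an authors' score of 973 and a signal of 41.2, and ranked 291 of 1500. It did not lie on H3K4me2 of either genotype. The nearest H3K4me2 was 16045 bases away in YAP livers and 242 bases away in WT livers. That WT region was 295 bases long and had no counterpart in YAP livers. H3K4me2 over the whole window covered 3946 bases in YAP livers and 5200 in WT livers. The gap over the start measured 656 bases in YAP livers and 296 in WT livers, and an intragenic region near 19 kb was listed in both, with 1266 bases in YAP livers and 1209 in WT livers.

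Insig1 encodes a protein that holds the SREBP escort Scap in the endoplasmic reticulum when sterols are plentiful, and lies on chromosome 5 from 28071412 to 28078662. LSD1 was listed just after its start in both genotypes, from 481 to 880 bases downstream in YAP livers and from 396 to 791 in WT livers, with 311 bases in common. Both entries had the highest authors' score, with signals of 58.1 in the YAP list, rank 115 of 2949, and 36.5 in the WT list, rank 244 of 1500. Every base of both regions lay on H3K4me2 of both genotypes. H3K4me2 covered 5577 bases in YAP livers and 5700 in WT livers. The downstream block extended from base 360 to base 4623 as 1 region in YAP livers, and from base 384 to base 4588 as 2 regions in WT livers. The gap over the start measured 665 bases in YAP livers and 683 in WT livers.

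LSD1 was thus listed at 2 of the 7 genes in YAP livers and at 2 in WT livers, while 11.1% of all protein-coding genes had it in YAP livers and 5.9% in WT livers. Hmgcs1 had it only in YAP livers, like 8.08% of all genes, Srebf2 only in WT livers, like 2.86%, and Insig1 in both, like 3.05%. Among the 7108 genes of similar H3K4me2 extent, these 3 shares were 14.6%, 5.04% and 5.36%, and LSD1 was listed in YAP livers at 19.9% and in WT livers at 10.4%. One gene in each state among 7 gives no direction for the group. Idi1, Fdps, Sqle and Lss had no LSD1 in either list.

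**Figure D2:**
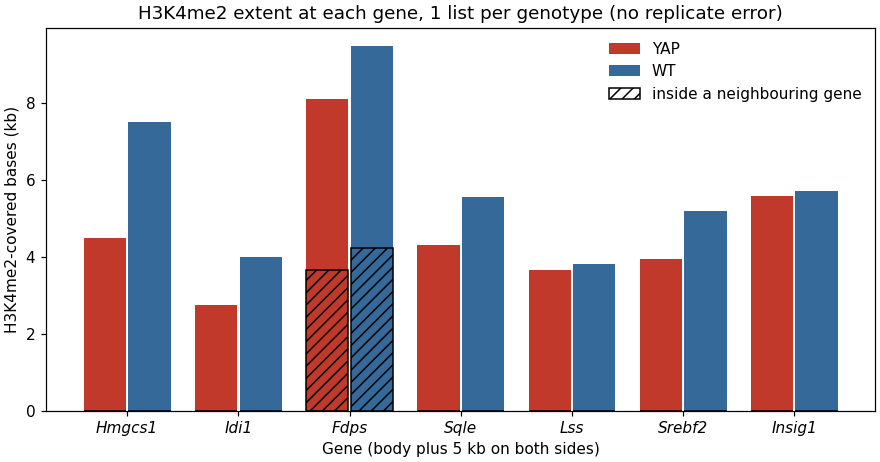
H3K4me2-covered bases in kb at each of the 7 genes with 5 kb on both sides, YAP in red and WT in blue, with hatching for bases inside another protein-coding gene. Every YAP bar is below its WT bar, by the most at Hmgcs1 (4475 against 7508 bases) and by the least at Insig1 (5577 against 5700).

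All 7 genes carried H3K4me2 in both genotypes, as did 14035 of the 21887 protein-coding genes. Taken singly, 66.7% of protein-coding genes carried it in YAP livers and 65.6% in WT livers. At each of the 7 the mark was less extensive in YAP livers, with 32.8 kb in YAP livers and 41.3 kb in WT livers in all, or 79.5% of the WT extent. With gene bodies alone 5 of the 7 had fewer bases, Lss and Insig1 having more in YAP livers, and among the higher-scoring 50% of regions 6 did, Insig1 having more. Without Hmgcs1, which alone gave 3.03 of the 8.47 kb of difference, the share was 83.9%. Fewer bases in YAP livers were also found at 59.1% of the 14915 protein-coding genes with any H3K4me2 (more bases at 40.8%), and at 64.1% of the genes of similar extent. The 6 hepatocyte markers together had 39.9 kb in YAP livers and 58.4 kb in WT livers, and the part of hepatocyte share or state in the values of the 7 genes was not tested. The log2 ratio of YAP over WT, with 500 bases added to both, was -0.69 at Hmgcs1, -0.47 at Idi1, -0.36 at Srebf2, -0.33 at Sqle, -0.21 at Fdps, -0.06 at Lss and -0.03 at Insig1. The median of the 7 was -0.33, beside -0.06 over genes with any H3K4me2 and -0.08 over genes of similar extent, where the quartiles were -0.23 and 0.07. Hmgcs1 alone had at least 1.5-fold fewer bases, as did 7.25% of genes with any H3K4me2 and 4.56% of those of similar extent. Among the higher-scoring 50% of regions the median of the 7 was -0.08, beside -0.04 for all genes with any.

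The regions themselves were largely nested. All 23 YAP regions of H3K4me2 at the 7 genes overlapped a WT region, and 21 of the 31 WT regions overlapped a YAP region. Over all regions in gene windows these shares were 79.9% in YAP livers and 74.7% in WT livers. Having no YAP region without a WT counterpart was a property of all 7 genes and of 54.7% of genes of similar extent, and at least 1 WT region without a YAP counterpart was found at 4 of the 7 and at 59.5%. The 10 WT regions without a counterpart had authors' scores from 33 to 78, against a median of 86 over the WT list, and were 202 to 704 bases long. They lay at Hmgcs1 (4), Sqle (3), Fdps (2) and Srebf2 (1). By bases, the median gene of the 7 had 97.5% of its YAP bases also covered in WT livers and 75.9% of its WT bases also covered in YAP livers, while the medians for genes of similar extent were 89.9% and 84.5%.

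**Figure D3:**
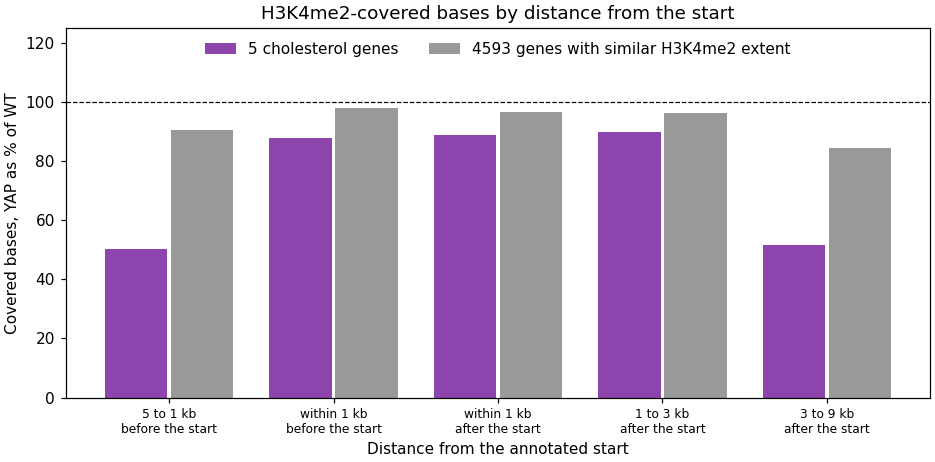
H3K4me2-covered bases in YAP livers as a percentage of those in WT livers, by distance from the annotated start, for the 5 of the 7 genes with 1 listed start (purple) and for 4593 genes of similar H3K4me2 extent (grey); the dashed line is equality. The purple bars are near 50 in the outer classes and near 90 in the 3 classes nearest the start.

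For Hmgcs1, Idi1, Lss, Srebf2 and Insig1 the covered bases could be placed relative to the start. From 5 to 1 kb before the start, 1.29 kb were covered in YAP livers and 2.57 kb in WT livers, or 50.3%, compared with 90.4% for 4593 genes of similar extent. From 3 to 9 kb after it, the values were 2.63 kb in YAP livers and 5.10 kb in WT livers, or 51.7%, compared with 84.5%. In the 3 classes between these, YAP livers had 87.7%, 88.6% and 89.9% of the WT bases, compared with 98.0%, 96.4% and 96.1%. These pooled values do not describe every gene. Within 1 kb after the start 2 genes had fewer bases in YAP livers and 2 had more. From 1 to 3 kb after it 2 had fewer and 1 had more. In both of these classes the genes with fewer bases were Idi1 and Srebf2. Hmgcs1 decided the far downstream class, since without it YAP livers had 1.62 kb and WT livers 1.80 kb there, or 90.1%. That remainder came from Idi1, with 0 bases in YAP livers and 294 in WT livers, and Insig1, with 1624 and 1508. Lss and Srebf2 had none there, so the 90.1% describes no common trend. Without Hmgcs1 the far upstream class stood at 65.3%, with no bases at Idi1 in either genotype.

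The rest of the pathway was read from 50 further genes in 4 lists. LSD1 was listed at 14 of these in YAP livers and at 9 in WT livers, with 7 genes having it in YAP livers alone, 2 in WT livers alone and 7 in both. Over all protein-coding genes the shares were 11.1% in YAP livers and 5.9% in WT livers, and at similar H3K4me2 extent 19.9% and 10.4%. Over all protein-coding genes 8.08% had it in YAP livers alone, 2.86% in WT livers alone and 3.05% in both. Similar extent, here and for each of the 4 lists below, still means the range of the 7 genes. It was not matched to the further genes. For example, Fdft1, Srebf1, Npc1, Scarb1 and Lrp1 lie above this range and Cyp51 lies below it. The shares at similar extent are therefore no matched background for these lists. Of the 49 with any H3K4me2, 31 had fewer bases in YAP livers and 18 had more, with a median log2 ratio of -0.10. The count with fewer bases is near the background, which was 59.1% of all genes with the mark and 64.1% of those of similar extent. At least 1.5-fold fewer bases were found at 5 genes and at least 1.5-fold more at 2, where 7.25% and 7.71% of all genes with H3K4me2 passed these limits.

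Among 17 further synthesis genes, LSD1 was in YAP only at 3, beside shares of 8.08% of all genes and 14.6% at similar extent, and in WT at none, beside 5.9% and 10.4%. Counts this small do not set the list apart from other genes. Examples were Cyp51, the lanosterol demethylase, with 1 region, and Fdft1, squalene synthase, with 2 regions. The H3K4me2 ratio of the list had a median of -0.05, close to all genes. In this list 10 genes had fewer bases in YAP livers and 7 more, beside 59.1% of all genes with the mark having fewer. Msmo1, a methylsterol oxidase, had 2.60 kb in YAP livers and 6.05 kb in WT livers, and Nsdhl, a sterol dehydrogenase, had 1.68 kb in YAP livers and 3.08 kb in WT livers.

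Among 11 genes that control SREBPs or sterol-dependent degradation, Faf2 and Erlin2 had LSD1 in YAP livers alone, Erlin1 in WT livers alone, and Srebf1, Insig2 and Fbxw7 in both. Of all genes, 8.08%, 2.86% and 3.05% had these states. At similar H3K4me2 extent the shares were 14.6%, 5.04% and 5.36%, and the counts were not tested. At Srebf1, which encodes the SREBP best known for fatty acid synthesis, the regions were centred at -170 from a listed start in YAP livers and at -156 in WT livers, both with the highest score. At Insig2, the close relative of Insig1, they were at different places, 121329465 to 121329864 on chromosome 1 in YAP livers and 121335871 to 121336266 in WT livers. H3K4me2 at Insig2 covered 4.16 kb in YAP livers and 8.07 kb in WT livers, and at Scap 3.13 kb in YAP livers and 6.36 kb in WT livers. The median of this list was -0.26, with 8 genes having fewer bases in YAP livers and 3 more. Fewer bases were found at 59.1% of all genes with the mark and 64.1% of those of similar extent. Counts this small do not set the list apart from these.

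Of 12 uptake and trafficking genes, 2 had LSD1 in YAP livers alone, 1 in WT livers alone and 3 in both. The matching shares were 8.08%, 2.86% and 3.05% of all genes. At similar H3K4me2 extent they were 14.6%, 5.04% and 5.36%, and the counts were not tested. Npc1, which exports cholesterol from lysosomes, was among those with LSD1 in YAP livers alone, and Stard4, a sterol carrier, had it in WT livers alone. The endocytic receptor Lrp1 had LSD1 in both genotypes, with 3 regions in YAP livers and 1 in WT livers. Scarb1, the HDL receptor, had 6.81 kb of H3K4me2 in YAP livers and 11.7 kb in WT livers, and its LSD1 regions were at different places in the gene. The list had a median of -0.12, with 8 genes having fewer bases in YAP livers and 3 more. The background share with fewer bases was 59.1% of all genes with the mark and 64.1% at similar extent. Again the counts are too small to set the list apart.

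The 10 efflux and storage genes had a median of 0.06, with 5 genes in each direction, beside 59.1% of all genes with the mark having fewer bases. LSD1 was listed in both genotypes at Abcg8, part of the exporter of sterols into bile, a state of 3.05% of all genes. Abcg1, which exports cholesterol to HDL, had 4.40 kb of H3K4me2 in YAP livers and 1.99 kb in WT livers, and Soat1, which esterifies cholesterol, had 2.25 kb in YAP livers and 1.02 kb in WT livers. Both genes are also known from macrophages, whose 4 markers had 11.7 kb in YAP livers and 4.40 kb in WT livers, and the part of such cells in these values was not tested.

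**Figure D4:**
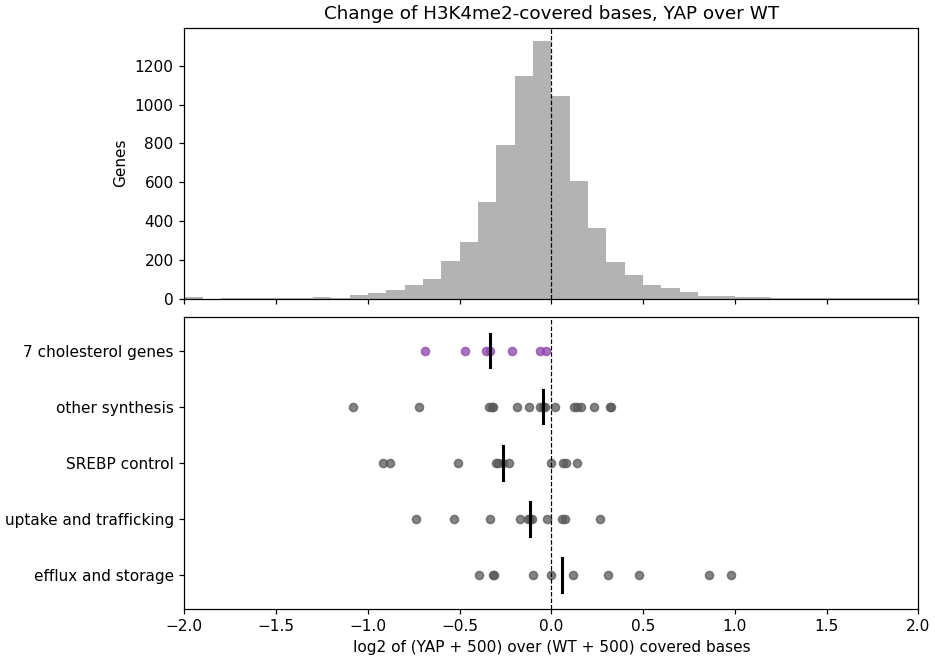
Top, number of genes by log2 ratio of H3K4me2-covered bases, YAP over WT with 500 bases added, among 7108 genes of similar extent (values beyond the axis are in the end classes). Bottom, the same ratio for each of the 7 genes (purple) and each further gene (grey), with list medians as black bars; the 7 genes lie between -0.69 and -0.03, and the median of efflux and storage genes is 0.06.

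The median profile of the 7 genes over the 6 lists was that of Sqle, with 4305 H3K4me2 bases in YAP livers, 5557 in WT livers and no LSD1 or H3K4me1. By Euclidean distance on log2 of covered bases plus 500 in the 6 lists, the nearest other genes were Orc6 and Vps35 (both 0.023), which share their H3K4me2, then Pcsk6 (0.025), Zdhhc9 (0.026) and Msrb1 (0.031). Hmgcs1 was the farthest of the 7 from this profile, at a distance of 1.54, and Insig1 the next, at 1.24.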

How the data were processed

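The deposited files were 6 lists of enriched regions on mm10, 1 for each antibody and genotype, and the labels assign a list to both of its replicates together. The submitters' processing notes name deepTools 3.3.0, bedtools 2.26.0, Picard 1.126, SAMtools 1.7, Trimmomatic 0.39 and BWA, with no roles. The peak caller is not given in the sources used here. The score deposited by the authors ranked regions within a list, with the deposited signal, an enrichment value of unstated definition, breaking ties. For the histone marks the deposited score was 10 times the deposited −log10 p-value without decimals, and the deposited −log10 q-value served 1 alternative. Scores were never compared between genotypes. Read depth is unknown.

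Overlapping or touching regions of a list were joined, and regions and covered bases were counted in each gene with 5 kb on both sides, for the 21887 protein-coding genes on chromosomes 1 to 19, X and Y of an NCBI RefSeq gene table (GRCm38.p6, the same coordinates as mm10). Log2 ratios of YAP over WT used 500 added bases. Starts, strands and promoter sequences came from a RefSeq promoter table of the same build, which held 5 of the 7 genes. Motifs were searched on both strands. Counting was checked on simulated data against bedtools 2.31.1, with 800 of 800 windows equal. Scripts ran under Python 3.11.15 with pandas 2.3.3, matplotlib 3.10.9 and numpy 2.4.6.

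All results are descriptions without a test, because no value per replicate was analysed here. The 7 genes and the 4 further gene lists were chosen with earlier results of these data known. Named further genes were those with LSD1 in either genotype and up to 3 per list and direction with the largest change in H3K4me2 of at least 1.5-fold. Some genes that this rule names are not reported here, and list counts include them. The background of genes with a similar extent of H3K4me2, and the setting without bases inside another protein-coding gene (noncoding genes such as Gm35223 were not counted as such), were added after the data were seen. The classes by distance from the start were not among the planned comparisons either.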

Additional observations from a re-analysis of the deposited data

How the results depend on the processing

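Settings were changed one at a time. The median log2 ratio of the 7 genes stayed below 0, between -0.36 and -0.08, with the smallest difference among the higher-scoring 50% of regions. With gene bodies alone, LSD1 was at 1 gene in YAP livers and in YAP only at 0, because the Hmgcs1 region lies outside the gene. With 50 kb on both sides it was at 4 genes in WT livers and in WT only at 3. Shares of all genes with LSD1 were taken with 5 kb on both sides alone, so they give no background for these counts. Genes with at least 1.5-fold fewer H3K4me2 bases numbered 0 among the higher-scoring 50% of regions, 2 with regions within 1 kb joined and 0 with 2000 bases added. Over the 7 genes and these settings, 60 of 63 log2 ratios were below 0; with gene bodies alone it was 0.066 at Lss and 0.043 at Insig1, and among the higher-scoring 50% of regions 0.16 at Insig1. With a reciprocal overlap of 50%, 7 YAP regions and 15 WT regions lacked a counterpart, and with 1 kb allowed between regions 0 YAP and 3 WT regions did. Shares over all regions were not taken under either rule, so these counts have no background. With deposited −log10 q-values above 0 required, H3K4me1 was at 0 genes, with 0 bases at Hmgcs1. The background of LSD1 in YAP only, WT only and both was 4.97%, 1.87% and 1.92% of all annotated genes, 12.3%, 4.38% and 4.71% of genes with H3K4me2 in both genotypes, and 14.6%, 5.04% and 5.36% of genes of similar extent, and fewer H3K4me2 bases in YAP were found at 57.6%, 60.6% and 64.1% of these. Beyond what the settings themselves change, the cause was not tested.

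No paired analysis was possible because each list stands for both replicates, and leaving out a replicate was not run for the same reason. Read depth is unknown, so a region missing from a list is only not listed; absence of the protein or mark cannot be read from it.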

Other observations

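Beyond the windows, the surroundings of Insig1 held the most LSD1 of the 7 genes. Within 50 kb on the lower-coordinate side, YAP livers had 3 further LSD1 regions, centred at -39.5, -33.1 and -15.8 kb from that end, with authors' scores of 1000, 1000 and 585. WT livers had 1, at -33.1 kb, with a score of 627, which overlapped its YAP counterpart. All lay inside the long noncoding RNA gene Gm35223, which spans Insig1 and was not treated as a neighbouring gene in the counts, and the region found in both genotypes was the only one of them on listed H3K4me2.

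At 50 kb, LSD1 regions in WT livers were also listed 19.6 kb from the lower-coordinate end of Fdps, with a score of 610, and 43.9 kb from that of Lss, inside the neighbouring gene Ftcd, with a score of 1000. Neither overlapped a YAP region, and no share over all genes was taken at this distance. Within the same distance, H3K4me1 was listed at Hmgcs1 alone, in WT livers.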
